A study of Mus musculus with 12 samples.

Results

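The respiratory chain and ATP synthase of mitochondria are built from subunits encoded in the nucleus and in mitochondrial DNA, and the subunits do not join on their own. Assembly factors are proteins that bring subunits together, insert hemes, copper, flavin and iron-sulfur clusters, or hold intermediates of a complex, and that are not part of the finished enzyme. Loss of many of them in people causes mitochondrial disease that affects muscle, heart and brain, tissues with a high demand for oxidative ATP production. The genes described here are 41 nuclear genes for such factors: 13 for complex I (NADH dehydrogenase), 4 for complex II (succinate dehydrogenase), 6 for complex III (cytochrome bc complex), 16 for complex IV (cytochrome c oxidase) and 2 for complex V (ATP synthase). They were chosen by gene symbol, with a mean of at least 0.5 FPKM (fragments per kilobase of transcript, scaled to library depth) over all libraries, and all 41 of the 41 listed passed, out of 12744 genes that passed the same filter and 17752 in the table.

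RNA was sequenced from the EDL, the extensor muscle of the toes and rich in fast-twitch fibers, of male mice that were kept sedentary or given running wheels from 8 weeks of age. Mice labelled strNrip1-/- carried floxed Nrip1 alleles and a Cre transgene driven by the muscle creatine kinase promoter, which is active in both heart and skeletal muscle, and mice labelled WT were Cre-negative littermates of the same cross. Nrip1 encodes RIP140, a nuclear receptor coregulator that often acts as a corepressor, and the floxed exon holds its whole coding sequence. The 4 groups (WT sedentary, strNrip1-/- sedentary, WT trained and strNrip1-/- trained) held 3 libraries each. The sources do not say whether each library came from 1 animal, so p-values measure the spread between these libraries. Low FPKM values stepped in whole fragments and gave an estimated scaling depth of 20000000 to 29200000 fragments per library. That depth is the divisor behind the FPKM and may differ from the number of fragments sequenced.

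The targeted gene went against the labels. Nrip1 was 3.60, 2.55 and 3.84 FPKM in the sedentary libraries labelled WT and 15.47, 16.26 and 14.90 FPKM in those labelled strNrip1-/-. It was 2.53, 4.76 and 3.56 FPKM in the trained libraries labelled WT and 20.73, 14.86 and 16.56 FPKM in those labelled strNrip1-/-. The gene-level value does not separate the floxed exon from the rest of the gene, so it does not check the deletion. Every direction below is therefore a direction between libraries labelled strNrip1-/- and libraries labelled WT.

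The factors were transcribed at moderate levels. Their mean FPKM over the 12 libraries had a median of 21.8, against 5.88 for all genes tested and 423 for 81 nuclear-encoded subunits of the same complexes. On this length-scaled measure, 4 factors were under 5 FPKM, 30 were between 5 and 50 FPKM, and 7 were above. The lowest was Sdhaf3, which protects the iron-sulfur subunit of complex II during its maturation, at 2.20 FPKM, and the highest was Uqcc2, a partner of Uqcc1 in the making of cytochrome b, at 302 FPKM. Fragments were estimated from FPKM with each gene's longest annotated transcript, and the fewest were 57 to 140 per library for Sco2, a copper chaperone. A shorter transcript would give fewer, so that ranking depends on the annotation. The spread within groups on the log2 scale (SD) ran from 0.037 for Coa5 to 0.312 for Lyrm7, with a median of 0.171 over the 41 genes.

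The promoter sequences of these genes were searched for short motifs because factors of the respiratory chain are known to share binding sites for a few transcription factors. RefSeq windows of 250 bases before to 50 bases after the start (GRCm38.p6) were given for 36 of the 41 genes. The ETS core CCGGAAG, searched on both strands, stood in the windows of 14 genes (38.9%), against 19.7% of the 9627 tested genes with a window and 8.86% of all 32851 windows. The YY1 motif AAGATGGCG stood in 4 (11.1%, against 3.56% of tested genes and 1.4% of all windows). The end of the ETS core and the start of the YY1 motif share letters, but no match of one overlapped a match of the other in these genes. The NRF1 core CGCATGCG stood in 3 (8.33%, against 4.27% and 1.87%), the CRE TGACGTCA in 3 (8.33%, against 3.51% and 1.79%), and the ERR motif TNAAGGTCA in none (0.966% and 1.28%). A match is a description of letters and was not tested as a binding site. The ETS matches of Cox10 and Cox15, which are called below, and of Bcs1l, Ndufaf1, Sco1 and Surf1, which are not, are printed 5′ to 3′ on the gene's strand with the match in capitals and 10 bases on each side, and they show the core in either direction.
Cox10 (ETS, chr11:64079483-64079509, minus strand): gcgctgggagCCGGAAGtgacaagagg
Cox15 (ETS, chr19:43752977-43753003, minus strand): gacgcctgacCCGGAAGtgcttgttct
Bcs1l (ETS, chr1:74588232-74588258, plus strand): gtgggtgtggCCGGAAGtagatgcagc
Ndufaf1 (ETS, chr2:119662836-119662862, minus strand): gggaccacaaCCGGAAGcgtggcgaac
Sco1 (ETS, chr11:67052615-67052641, plus strand): cctccttcggCTTCCGGcagaagcgga
Surf1 (ETS, chr2:26916512-26916538, minus strand): tggccctactCTTCCGGtcacggttct

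The YY1 matches lie just after the RefSeq start on which each window was built. This holds for the called Cox10 and Atpaf2 and for the uncalled Ndufaf8 and Tmem126b. For Atpaf2 that start lies inside the gene as the GENCODE annotation gives it. The matches of the 2 called genes are printed with the match in capitals.
Cox10 (YY1, chr11:64079433-64079461, minus strand): gcgggctagcAAGATGGCGgcgcccagga
Atpaf2 (YY1, chr11:60417010-60417038, minus strand): tgtcatgaggAAGATGGCGgcgtgctgag

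The first comparison asked how the factors differ between muscles labelled strNrip1-/- and WT, in each training state and averaged over both. In the averaged genotype effect 6 of the 41 factors rose and none fell: Cox11, Uqcc1, Atpaf2, Cox15, Cox10 and Foxred1, by 1.26-fold to 1.65-fold on the log2(FPKM + 0.5) scale. A gene was called when limma's Benjamini-Hochberg adjusted p was under 0.05 over all 12744 genes and the fold was over 1.2. Of all genes tested, 4.9% were called higher and 3.91% lower in this comparison. In the sedentary libraries 4 factors rose and none fell (background 1.92% higher and 1.59% lower), and in the trained libraries 3 rose and none fell (3.21% higher and 2.77% lower). The 3 genes called in both training states were Uqcc1, Cox11 and Cox10. The called genes belonged to complex IV (3), complex I (1), complex III (1) and complex V (1).

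**Figure D1:**
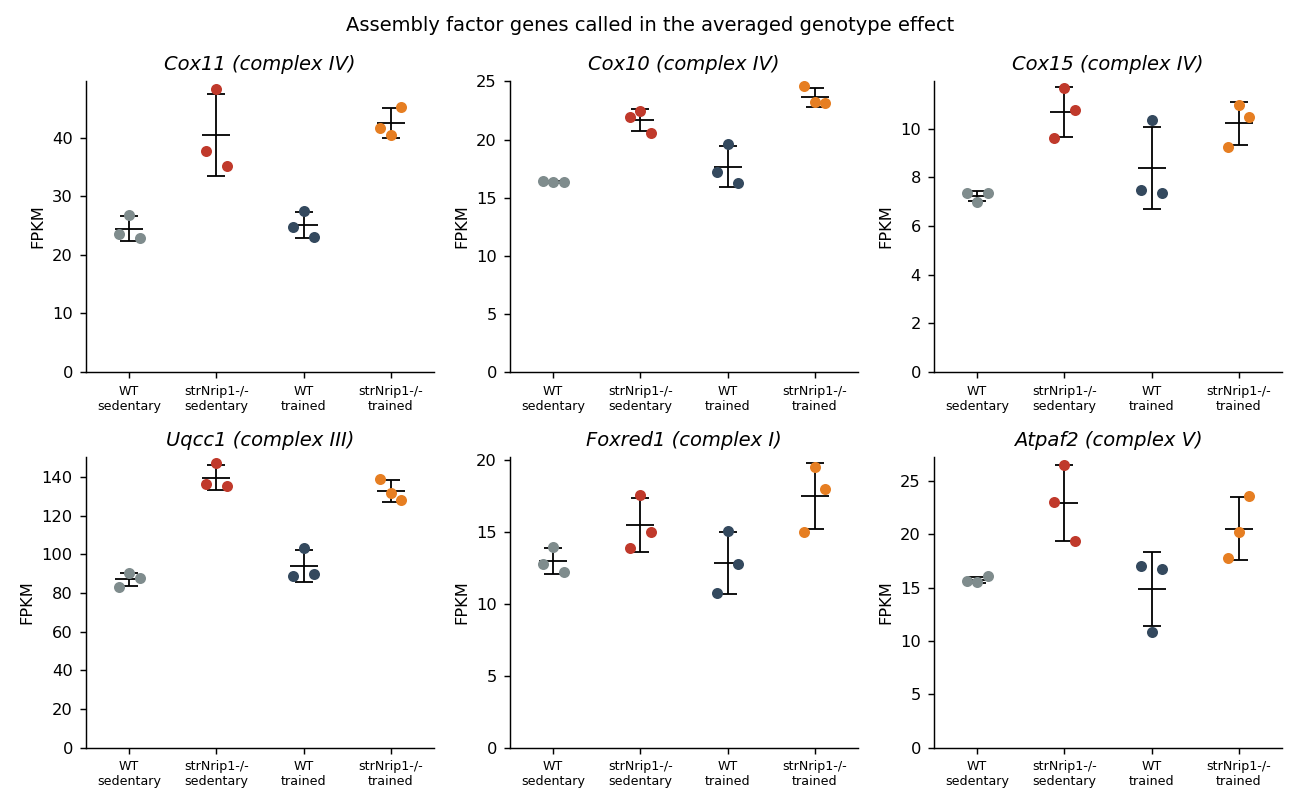
FPKM of the 6 assembly factor genes called in the averaged genotype effect, by library (points) with the mean and SD of each group of 3 (bars), on axes that start at 0. Cox11, Cox10, Uqcc1 and Atpaf2 show no overlap between the 6 libraries labelled strNrip1-/- and the 6 labelled WT, while those of Cox15 and Foxred1 overlap.

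Heme A, the cofactor of cytochrome c oxidase, is made from heme in consecutive steps by Cox10 and Cox15, and both genes were higher. Cox10 (chromosome 11, 63962627 to 64079468, mm10), which adds the farnesyl tail, was 16.47, 16.31 and 16.36 FPKM in WT sedentary and 21.96, 22.45 and 20.60 FPKM in strNrip1-/- sedentary libraries. In trained libraries it was 17.17, 19.62 and 16.26 FPKM for WT and 24.60, 23.19 and 23.14 FPKM for strNrip1-/-. All 6 libraries labelled strNrip1-/- were above all 6 labelled WT. The log2 fold change was 0.39 (SE 0.0764, adjusted p = 0.0178) in sedentary, 0.41 (SE 0.0764, adjusted p = 0.0104) in trained and 0.40 (SE 0.054, adjusted p = 0.000804) in averaged libraries by limma. The averaged call held without each library in turn, but the sedentary call was lost without any 1 of the 3 WT sedentary libraries or of strNrip1-/- sedentary replicates 1 and 2 (adjusted p 0.0528 to 0.0683). When only the compared groups were fitted, neither the sedentary (adjusted p = 0.0633) nor the trained call (adjusted p = 0.055) was made, and at an equal FPKM sum the sedentary call was lost (adjusted p = 0.0985). It was also lost without the 3 libraries with the most slow-fiber RNA (adjusted p = 0.101 by limma).

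Cox15 (chromosome 19, 43733254 to 43753000, mm10), the heme A synthase itself, was 7.35, 6.99 and 7.37 FPKM in WT sedentary and 9.63, 11.66 and 10.77 FPKM in strNrip1-/- sedentary libraries, with no overlap. In trained libraries it was 7.48, 10.34 and 7.34 FPKM for WT and 9.24, 10.96 and 10.48 FPKM for strNrip1-/-, and WT trained replicate 2 lay inside the range of the other group. Its averaged log2 fold change was 0.41 (SE 0.0895, adjusted p = 0.0139 by limma), and that call held without each library in turn. The sedentary call (log2 fold change 0.53, adjusted p = 0.0453) failed when any of 11 of the 12 libraries was left out (adjusted p 0.0503 to 0.131) and, among these, held only without WT trained replicate 2. It also failed at an equal FPKM sum (adjusted p = 0.0914 by limma) and when only the sedentary groups were fitted (adjusted p = 0.0584). No filter on low values (0.0604) and a constant variance prior (0.0641) lost it too. So did leaving out the 3 libraries with the most slow-fiber RNA (0.0575) and removing a length and GC trend (0.051). The trained effect was 0.28 (95% interval 0.01 to 0.56, adjusted p = 0.227) with all libraries and 0.44 (adjusted p = 0.0383) without WT trained replicate 2. The difference between the training states, tested as an interaction, was -0.24 (95% interval -0.64 to 0.15, adjusted p = 0.768).

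Copper reaches cytochrome c oxidase through Cox17, the Sco proteins and Cox11, and of these genes Cox11 alone passed the test. Cox11 (chromosome 11, 90638173 to 90644931, mm10), which delivers copper to the core catalytic subunit, was 23.62, 26.84 and 22.93 FPKM in WT sedentary and 37.70, 48.36 and 35.17 FPKM in strNrip1-/- sedentary libraries. In trained libraries it was 24.80, 27.49 and 23.04 FPKM for WT and 41.72, 40.49 and 45.31 FPKM for strNrip1-/-. No library labelled strNrip1-/- came down to the highest of the WT libraries. This was the highest fold change of the 41 genes, with a log2 fold change of 0.70 (SE 0.117, adjusted p = 0.00827) in sedentary, 0.75 (SE 0.117, adjusted p = 0.00451) in trained and 0.73 (SE 0.0829, adjusted p = 0.00028) in averaged libraries. All 3 calls held without each library in turn, but the sedentary call was lost when only the 2 sedentary groups were fitted (log2 fold change 0.70, adjusted p = 0.0621). The other genes grouped here under copper delivery were not called: the averaged log2 fold change was 0.28 (95% interval -0.05 to 0.62) for Sco2, 0.26 (0.08 to 0.44, adjusted p = 0.0725) for Sco1, 0.05 (-0.18 to 0.27) for Cox17 and -0.02 (-0.19 to 0.16) for Cox19. Coa6 was not put in that group, and it was not called either, at 0.04 (-0.19 to 0.28).

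The genes around Cox11 were read as well, and their part in the Cox11 value was not tested. Exons of Cox11 overlap those of Tom1l1 on the opposite strand by up to 562 bases. The library kit does not keep strand, so reads of that stretch cannot be told apart. Tom1l1 was lower in level, at a mean of 6.23 FPKM, and its averaged log2 fold change was -0.16 (95% interval -0.41 to 0.10). It was 9.46, 7.62 and 6.40 FPKM in WT sedentary and 4.76, 6.18 and 6.08 FPKM in strNrip1-/- sedentary libraries, wholly lower in the latter, with a sedentary log2 fold change of -0.42 (95% interval -0.78 to -0.07, adjusted p = 0.212 by limma) and a trained one of 0.11 (-0.24 to 0.47). The gene that starts 89 bases upstream and runs the other way, Stxbp4, was 3.95, 2.94 and 3.31 FPKM in WT sedentary and 4.89, 4.74 and 5.32 FPKM in strNrip1-/- sedentary libraries, and 3.45, 4.68 and 3.50 against 5.08, 5.86 and 5.39 FPKM in trained ones. Stxbp4 was called in the averaged effect (log2 fold change 0.47, adjusted p = 0.00707 by limma). It was not called in sedentary (adjusted p = 0.0663) or trained libraries (adjusted p = 0.0682). Genes that start near another factor and run the other way were tested too. Of these only Ercc8, beside Ndufaf2, was called on average, and it was lower (log2 fold change -0.39, adjusted p = 0.0359 by limma). The longest overlap of a Cox15 exon with an exon of Entpd7, whose mean was 0.192 FPKM, was 444 bases. With Cutc it was 5 bases, and the averaged log2 fold change of Cutc was -0.09 (95% interval -0.27 to 0.08). The longest overlaps of uncalled factors with a gene of the table were 1648 bases for Cox16 with a read-through gene on the same strand, 829 for Sco2 with Ncaph2 and 591 for Cox20 with Hnrnpu, so the values of those 3 are uncertain. Annotated genes without a value in the table overlap Ndufaf2 by up to 1955 bases, Sdhaf1 by 1733, Acad9 by 525 and Ecsit by 493. The values of these factors are uncertain too.

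The remaining complex IV factors did not pass. In the averaged effect 13 of the 16 lay above 0, with a median of 0.12, and the range ran from -0.14 for Cox16 to 0.73 for Cox11. Surf1, which acts in heme insertion and is a common gene in Leigh syndrome, was at 0.09 (95% interval -0.10 to 0.28). Cox14 and Coa3, which hold the newly made core subunit, were at 0.13 and -0.08. Coa5 had the smallest spread of all: its 6 libraries labelled strNrip1-/- ran from 41.64 to 43.97 FPKM and its 6 labelled WT from 38.00 to 41.01 FPKM. Those ranges did not overlap, yet the log2 fold change was 0.10 (95% interval 0.01 to 0.18, adjusted p = 0.148).

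Uqcc1 (chromosome 2, 155846894 to 155930310, mm10) acts with Uqcc2 in the synthesis and stabilization of cytochrome b, the subunit of complex III encoded in mitochondrial DNA. It was 83.28, 90.33 and 87.57 FPKM in WT sedentary and 136.34, 147.30 and 135.53 FPKM in strNrip1-/- sedentary libraries. In trained libraries it was 88.75, 103.27 and 89.67 FPKM for WT and 138.79, 131.52 and 127.96 FPKM for strNrip1-/-. The groups were far apart, with every library labelled strNrip1-/- above every one labelled WT. Uqcc1 had the smallest adjusted p of the 41 genes: the log2 fold change was 0.68 (SE 0.0731, adjusted p = 0.00071) in sedentary, 0.50 (SE 0.0731, adjusted p = 0.00318) in trained and 0.59 (SE 0.0517, adjusted p = 5.14e-05) in averaged libraries, and the calls held without each library in turn. Its partners were not called. Uqcc2 was at -0.02 (95% interval -0.26 to 0.23) and Uqcc3, which joins the same intermediate, at -0.14 (-0.37 to 0.09) in the averaged effect. The factors for the Rieske iron-sulfur protein, inserted last, were Bcs1l at 0.14 (0.02 to 0.25, adjusted p = 0.123), Lyrm7 at 0.29 (-0.06 to 0.63) and Ttc19 at -0.07 (-0.21 to 0.06).

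Among the 13 complex I factors, 11 lay above 0 in the averaged effect, with a median of 0.20, and Foxred1 alone was called. Foxred1 (chromosome 9, 35204206 to 35211055, mm10), an oxidoreductase-like protein needed for complex I assembly, was 12.75, 13.97 and 12.21 FPKM in WT sedentary and 13.84, 17.52 and 14.98 FPKM in strNrip1-/- sedentary libraries. In trained libraries it was 10.75, 15.04 and 12.74 FPKM for WT and 14.97, 19.48 and 17.94 FPKM for strNrip1-/-. The groups overlapped in each training state. The averaged log2 fold change was 0.34 (SE 0.0958, adjusted p = 0.0456 by limma), just inside the threshold. The call failed when any of 9 of the 12 libraries was left out (adjusted p 0.0568 to 0.106) or at an equal FPKM sum (adjusted p = 0.0675). It also failed with no filter on low values (0.0623), a constant variance prior (0.0603) or a length and GC trend removed (0.0573). Among the single libraries left out, it held only without strNrip1-/- sedentary replicate 1, WT trained replicate 2 or strNrip1-/- trained replicate 1. The 4 factors of the complex that assembles the proximal membrane arm (Ndufaf1, Ecsit, Acad9 and Tmem126b) were at 0.23, 0.10, 0.25 and 0.09, and none was called. Ndufaf7 and Ndufaf5, which modify arginines of core subunits, lay at 0.22 (95% interval 0.05 to 0.38) and -0.13 (-0.27 to 0.02). Nubpl, which supplies iron-sulfur clusters to complex I, was at 0.28 (0.03 to 0.54, adjusted p = 0.161).

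The 4 complex II factors showed no call, with a median of 0.06. The one with the largest change was Sdhaf2, which attaches flavin to the catalytic subunit: it was 24.30, 26.38 and 26.20 FPKM in WT sedentary and 23.88, 34.49 and 27.86 FPKM in strNrip1-/- sedentary libraries, and 25.82, 27.68 and 22.75 against 30.27, 26.48 and 28.20 FPKM in trained ones. These groups overlapped, and the averaged log2 fold change was 0.15 (95% interval -0.04 to 0.34, adjusted p = 0.323 by limma). For complex V, Atpaf2 (chromosome 11, 60400626 to 60418457, mm10), the chaperone of the alpha subunit of the catalytic head, was 15.62, 15.50 and 16.07 FPKM in WT sedentary and 22.98, 26.46 and 19.39 FPKM in strNrip1-/- sedentary libraries. In trained libraries it was 17.02, 10.87 and 16.79 FPKM for WT and 17.75, 20.23 and 23.58 FPKM for strNrip1-/-. The labelled groups did not overlap, and WT trained replicate 2 was the lowest library. Atpaf2 rose in the averaged effect (log2 fold change 0.49, SE 0.12, adjusted p = 0.0222), and lost that call without WT sedentary replicate 1 (adjusted p = 0.0521) or strNrip1-/- trained replicate 3 (adjusted p = 0.0583), and after rescaling to the same FPKM sum (log2 fold change 0.45, adjusted p = 0.064). Atpaf1, the chaperone of the beta subunit, was at 0.10 (95% interval -0.11 to 0.31).

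**Figure D2:**
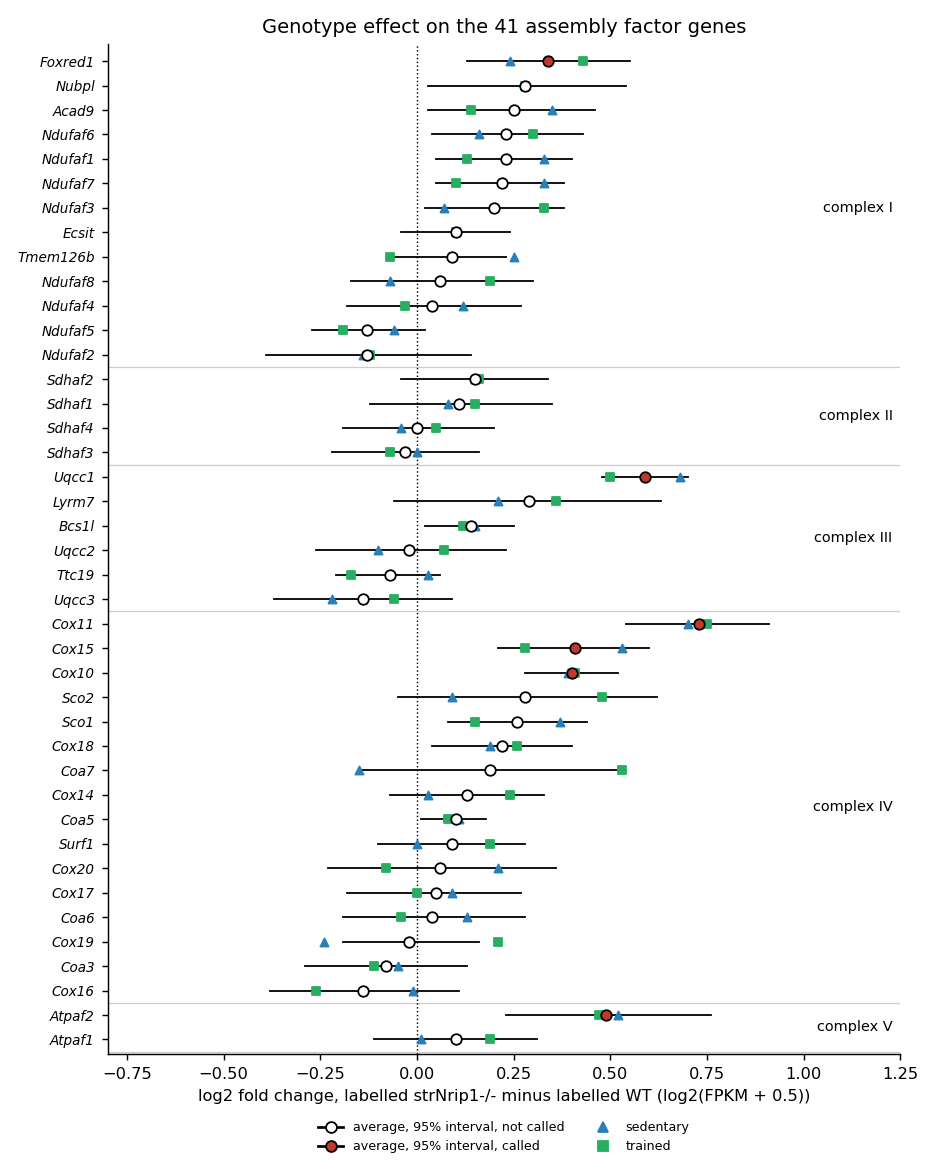
Log2 fold change (labelled strNrip1-/- minus labelled WT, on log2(FPKM + 0.5)) of the 41 genes, grouped by complex: circles give the average over both training states with its 95% interval, filled red where called, and triangles and squares give the sedentary and trained effects. The called genes run from 0.34 for Foxred1 to 0.73 for Cox11, and most other intervals lie around values between -0.14 and 0.29.

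Most of the 41 factors, called or not, leaned the same way, and in the sedentary libraries this depended on 1 library. In the averaged effect 32 of the 41 log2 fold changes were above 0 with a median of 0.11, against a median of 0.00 over all genes tested. In the sedentary effect 30 were above 0 (median 0.11), and in the trained effect 30 (median 0.15). The log2 fold change was above 0 in both training states for 24 factors (58.5%) and below 0 in both for 5 (12.2%), against 31.3% and 30.5% of all genes tested. The strNrip1-/- sedentary replicate 2 stood high, with a median deviation of the factors of 0.27, while its other replicates were at 0.02 and -0.07. Without it, 22 of 41 factors were above 0 in the sedentary effect and the median was 0.02, while 28 were above 0 in the averaged effect (median 0.10) and 30 in the trained effect (median 0.15). Setting every library to an equal FPKM sum moved the median of all genes to -0.14 in the sedentary effect, 0.06 in the trained and -0.04 in the averaged. The factors moved with it, to 16, 33 and 28 of 41 above 0, and their median stood 0.10, 0.15 and 0.11 above that of all genes, against 0.12, 0.14 and 0.11 without the rescaling. After rescaling by nuclear genes alone, 36, 31 and 35 of 41 were above 0, and the median stood 0.12, 0.14 and 0.11 above that of all genes. Genes of mitochondrial DNA took 51.2% to 52.8% of the FPKM sum in strNrip1-/- sedentary libraries and 42.2% to 44.6% in WT sedentary ones. In trained libraries these shares overlapped, at 43.7% to 45.7% for strNrip1-/- and 43.8% to 47.3% for WT. The equal FPKM sum also turned the calls over all genes from 245 higher and 202 lower to 121 and 531 in sedentary libraries, from 409 and 353 to 549 and 130 in trained ones, and from 624 and 498 to 429 and 524 on average. Rescaling by nuclear genes alone gave 397 and 83, 466 and 149, and 827 and 240. The calls of Uqcc1 and Cox11 held, upward, under both scalings.

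**Figure D3:**
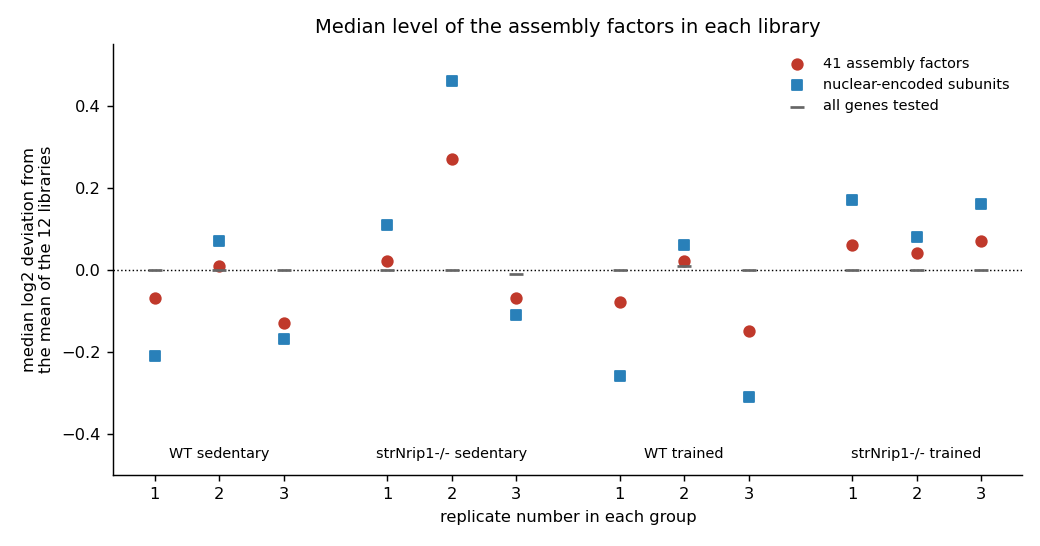
Median log2 deviation from the mean of the 12 libraries, for the 41 assembly factors, the nuclear-encoded subunits and all genes tested, in each library by group and replicate number. The strNrip1-/- sedentary replicate 2 is highest, at 0.27 for the factors and 0.46 for the subunits, and all genes lie between -0.01 and 0.01.

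Counting factors whose libraries did not overlap between the labelled genotypes gave a similar picture. In sedentary libraries 12 factors lay wholly higher and 0 wholly lower in strNrip1-/-, against 9.79% and 10.9% of all genes. In trained libraries 13 lay higher (13.9% of all genes) and 1, Ndufaf5, lay lower (13.4%). Over all 12 libraries 5 factors lay higher (Uqcc1, Cox10, Cox11, Coa5 and Atpaf2) and 0 lower, against 2.97% and 3.23% of all genes. As a share of the 41 genes these are 29.3%, 31.7% and 12.2%. By position, 8 of the 41 factors lie on chromosome 11, as do 3 of the 6 called ones, while that chromosome holds 8.24% of all genes tested and 8.65% of all genes called higher.

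The subunits that these factors assemble were read from a list of 81 nuclear genes, of which 80 passed the filter. In the averaged effect 27 rose, none fell and 53 were not called, with a median log2 fold change of 0.27, against 6 of 41 and 0.11 for the factors. In sedentary libraries 7 subunits rose (median 0.26) and in trained libraries 14 rose (median 0.32), and none fell. The 2 subunits with the smallest p were Atp5a1, the alpha subunit of ATP synthase, at 0.51 (SE 0.0583, adjusted p = 0.000293) and Uqcrc1, a core protein of complex III, at 0.43 (SE 0.0575, adjusted p = 0.000776). By complex, the subunit and factor medians were 0.24 and 0.20 for complex I, 0.41 and 0.06 for complex II, 0.36 and 0.06 for complex III, 0.34 and 0.12 for complex IV and 0.25 and 0.30 for complex V. Whether the lists differ was not tested. Another 22 assembly factors outside the 41 (of 23 listed, since Coa1 was not matched) had 2 called higher, Tmem177 and Tmem70, none lower and a median of 0.14. The 2 with the smallest p were Taco1, a translation activator for cytochrome c oxidase, at 0.24 (adjusted p = 0.00615, under the fold threshold) and Tmem177 at 0.30 (adjusted p = 0.0109). Of the 13 subunits encoded in mitochondrial DNA none was called. Their medians were 0.41 in sedentary, -0.03 in trained and 0.18 in averaged libraries. An unadjusted p under 0.05 by limma was found for 13 of 13 in sedentary, 0 in trained and 5 in averaged libraries. Over all 12744 genes the counts were 2080, 2683 and 3072.

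**Figure D4:**
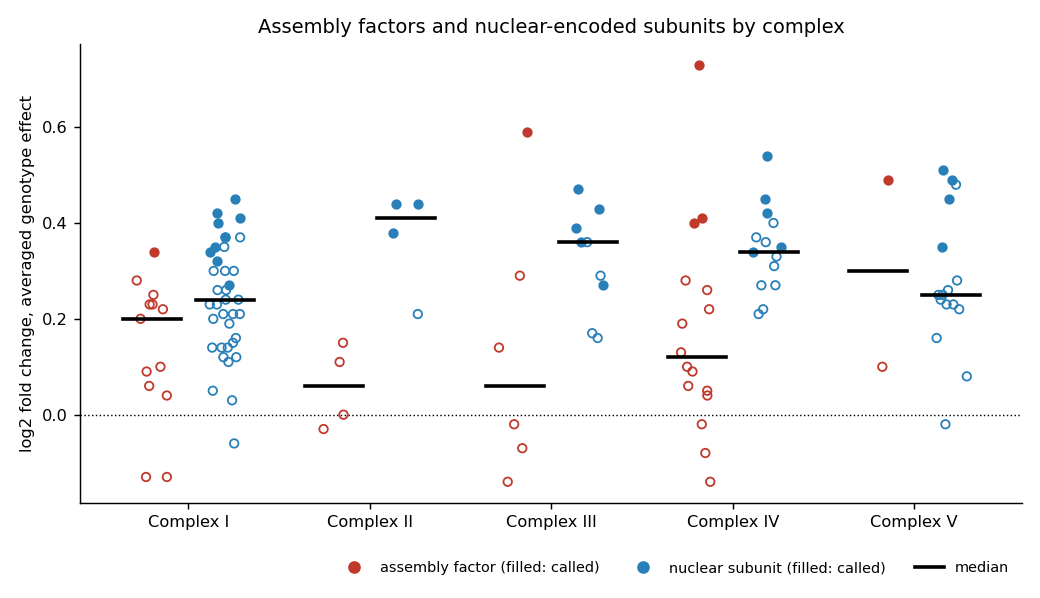
Log2 fold change in the averaged genotype effect for each assembly factor (red) and each nuclear-encoded subunit (blue) of complexes I to V, filled where called, with the median of each set as a black bar. The subunit medians lie between 0.24 and 0.41, and the factor medians between 0.06 and 0.30.

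Markers of cell types moved with the labelled genotype too. Of 9 markers of fast fibers, 5 were called lower in the averaged effect (Actn3, Acta1, Mylpf, Myh4 and Pvalb), and their summed FPKM was 128000 to 140000 in WT sedentary, 97200 to 125000 in strNrip1-/- sedentary, 127000 to 153000 in WT trained and 110000 to 114000 in strNrip1-/- trained libraries. Of 7 endothelial markers 2 were called higher (Tie1 and Cdh5), with sums of 89.2 to 95.3, 99.7 to 110, 87.2 to 102 and 108 to 114 FPKM in the same order. None of the markers of slow fibers, adipocytes, macrophages, Schwann cells, fibroblasts, blood or tendon was called by genotype, and no marker was at 0 in all libraries. The slow-fiber sum was 68.8 to 316 FPKM in WT sedentary, 103 to 335 in strNrip1-/- sedentary, 57.9 to 563 in WT trained and 119 to 274 in strNrip1-/- trained libraries, with WT trained replicate 2 highest. The adipocyte sum was 12.4 to 25.5, 43.1 to 116, 35.1 to 76.9 and 43.8 to 113 FPKM. Without the 3 libraries with the most slow-fiber RNA, 7 factors rose in the averaged effect, among them Uqcc1, Cox11, Cox10, Cox15 and Foxred1, but not Atpaf2 (adjusted p = 0.0841). In whole muscle, fewer cells of a type and less RNA per cell cannot be told apart, and the part of these markers in the results was not tested.

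The second comparison asked whether wheel running changed the factors in either labelled genotype. No factor was called in WT or in strNrip1-/- libraries, nor was any other gene (0.0% of all genes in each). Averaged over both genotypes no factor was called, while 0.0785% of all genes were called higher and 0.0392% lower. Among the cell type markers, the fibroblast gene Col1a1 alone was called in that averaged training effect, higher after training. The number of factors with an unadjusted p under 0.05 was 1 in WT, 3 in strNrip1-/- and 3 on average, and that of all genes was 1061, 1544 and 1466. The median log2 fold change of the factors was 0.01 in WT, -0.02 in strNrip1-/- and -0.01 on average. Pooled over genotype, 0 of the 41 factors had trained and sedentary libraries that did not overlap, against 0.377% of all genes higher and 0.416% lower after training. The largest averaged values were 0.28 for Atpaf1 (95% interval 0.08 to 0.49, adjusted p = 0.248) and -0.23 for Sdhaf3 (-0.42 to -0.04, adjusted p = 0.327). The 95% interval of the effect averaged over genotypes stayed inside a 1.5-fold change for all 41 genes and inside a 1.2-fold change for 16, so changes near 1.2-fold were not resolved for most genes. Within a genotype it reached past 1.5-fold for 3 genes in WT (Coa7, Ndufaf2 and Sco2) and 6 in strNrip1-/- libraries (Atpaf1, Coa7, Cox16, Cox19, Cox20 and Sco2), and stayed inside 1.2-fold for 4 and 5. Coa7 reached farthest, at -0.38 (-0.87 to 0.10) in WT and 0.29 (-0.19 to 0.78) in strNrip1-/- libraries. For genes called by genotype the averaged training values were 0.06 (-0.12 to 0.24) for Cox11, 0.02 (-0.10 to 0.13) for Uqcc1 and 0.11 (-0.01 to 0.23) for Cox10.

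**Figure D5:**
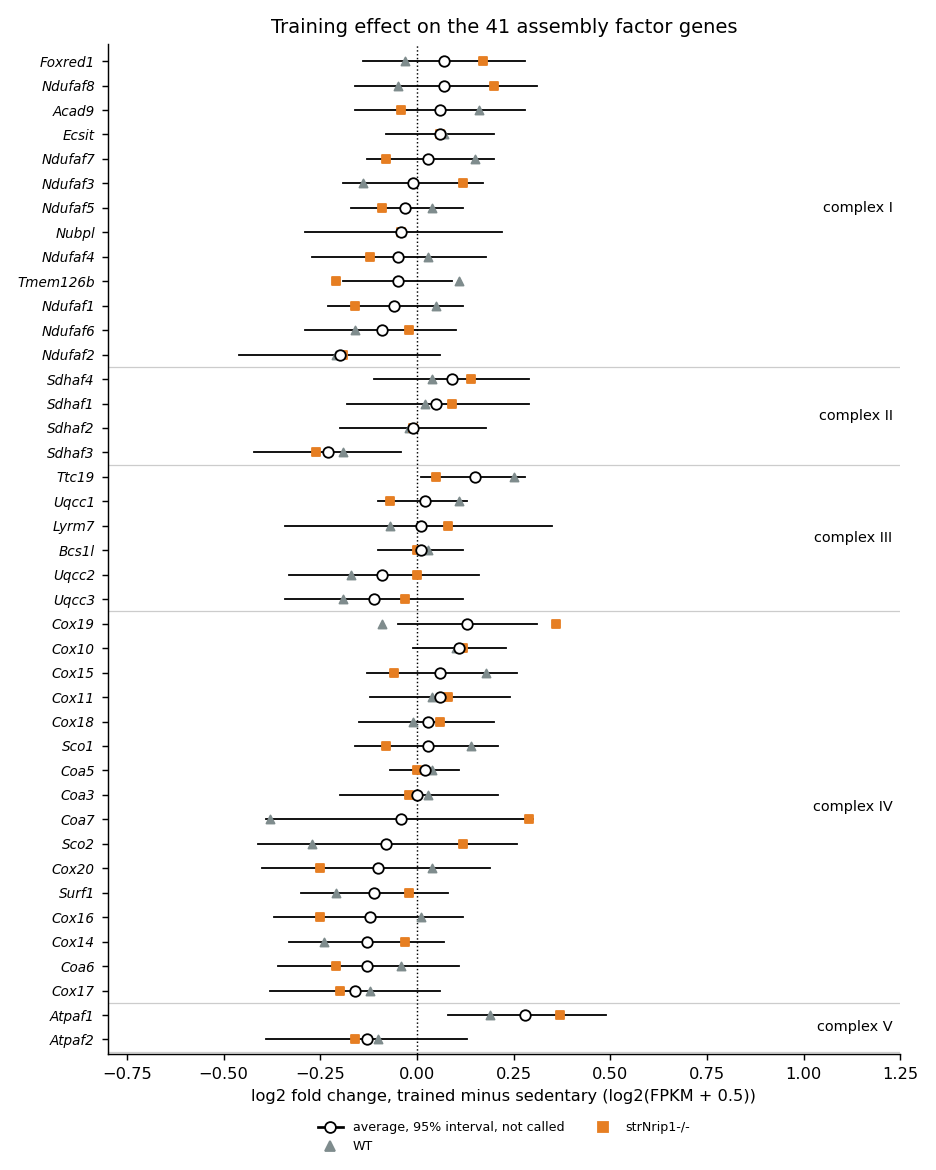
Log2 fold change (trained minus sedentary, on log2(FPKM + 0.5)) of the 41 genes by complex: circles give the average over both genotypes with its 95% interval, triangles the WT and squares the strNrip1-/- libraries. No gene is called, and the averages run from -0.23 for Sdhaf3 to 0.28 for Atpaf1.

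The third comparison asked whether the genotype effect differed between training states. The interaction passed for no factor and for no gene at all (0.0% of genes, with 989 genes and 2 factors at an unadjusted p under 0.05). The 2 factors were Cox19 at 0.45 (95% interval 0.10 to 0.80, adjusted p = 0.592) and Tmem126b at -0.33 (-0.62 to -0.04, adjusted p = 0.621). Cox19, a copper-handling protein of the intermembrane space, had genotype values of -0.24 in sedentary and 0.21 in trained libraries, neither of them called. For the genes called by genotype the interaction was 0.05 (-0.32 to 0.41) for Cox11, -0.18 (-0.41 to 0.05) for Uqcc1, 0.02 (-0.22 to 0.26) for Cox10, 0.20 (-0.23 to 0.62) for Foxred1 and -0.05 (-0.58 to 0.47) for Atpaf2, so differences of that width between the training states were not resolved.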

How the data were processed

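RNA of 12 EDL samples (4 groups of 3, from the labels) was sequenced in paired ends from an unstranded library kit. The authors quantified reads with Salmon 1.10.2 on mm10, summed transcripts to genes with tximport and used DESeq2 1.44.0, per the methods and the submitters' processing notes, and deposited FPKM values for 17752 genes. The annotation release and the function that made the FPKM are not given in the sources used here. The deposited table also holds fold changes and adjusted p-values of the authors' 4 comparisons, which were not used.

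FPKM was taken as log2(FPKM + 0.5) for the 12744 genes averaging 0.5 FPKM or more and fitted with limma 3.58.1 (R 4.3.3) as 4 group means over all 12 libraries, with a variance trend and Benjamini-Hochberg adjustment over all genes, for 7 contrasts. Calls needed an adjusted p under 0.05 and a fold over 1.2 (the interaction, the adjusted p alone). Fold changes on this scale understate those of low genes. No pair of libraries in a group shared more than 0.282% of its FPKM values, so none was a copy. The scaling depth was read from low values of genes with 1 transcript, of which 99.1% to 99.6% were whole fragments within 0.15.

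Overlaps and positions came from GENCODE M21 and promoters from RefSeq (GRCm38.p6). Members and gene lists were chosen with earlier results of these data known. Library values are given for every member called in at least 1 contrast and, per complex, for the member with the largest averaged genotype effect; for other lists the 2 genes with the smallest p are named. The grouping of complex IV factors by cofactor was made after the values were seen. Alternatives were pseudocounts of 0.1 and 1, no filter or a mean of at least 5 FPKM, 3 other scalings, a constant variance prior, the compared groups alone, a replicate block and each library left out.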

Additional observations from a re-analysis of the deposited data

How the results depend on the processing

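The averaged calls of Cox11, Uqcc1, Cox10 and Cox15 held under every alternative and without each library in turn, as did the trained calls of Cox11 and Uqcc1 and the sedentary call of Uqcc1. The main counts of factors called higher were 4 in sedentary and 3 in trained libraries and 6 on average. The sedentary count fell to 2 (Uqcc1 and Cox11) after rescaling to the same FPKM sum, to 1 (Uqcc1) when only the compared groups were fitted, where fewer samples enter, and to 2 without the 3 libraries with the most slow-fiber RNA, and rose to 6 after rescaling to the same nuclear FPKM sum (Ndufaf1 and Ndufaf7 added). The averaged count became 4 with the same FPKM sum (Foxred1 and Atpaf2 lost) and 9 with the same nuclear sum (Ndufaf1, Ndufaf7 and Ndufaf6 added). With no filter, and with a constant variance prior, Foxred1 was lost from the averaged calls and Cox15 from the sedentary calls. The trained count became 2 with only the compared groups (Cox10 lost) and 4 with either sum (Foxred1 added). Without single libraries the sedentary count ran from 2 to 5, the trained count from 3 to 5 and the averaged count from 4 to 8. Rescaling to the same FPKM sum also moved the median of the factors to -0.04 for the sedentary genotype effect, 0.15 for training in strNrip1-/- and 0.21 for the interaction, and turned the sedentary value of Sdhaf2 to -0.01. No factor was called lower, by training or in the interaction under any alternative.

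Over all genes the sedentary count of 447 became 166 with only the compared groups, 143 without the 3 slow-fiber libraries and 163 to 478 without single libraries, and the trained count of 762 became 445, 398 and 315 to 874. The averaged training count of 15 ran from 0 to 28 under the alternatives and from 1 to 190 without single libraries. The counts of 0 rose to at most 8 for training in WT and, after rescaling to the same FPKM sum, to 150 in strNrip1-/-. They rose to at most 30, 4 and 1 (interaction) without single libraries. Other causes were not tested.

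Replicates of different groups share numbers. The deviations of same-numbered libraries correlated at -0.105 to 0.241 (5 of 18 pairs over 0.1, median -0.0095). Other pairs correlated at -0.251 to 0.196 (3 of 36 over 0.1, median -0.00294). Replicates 2 of WT sedentary, strNrip1-/- sedentary and WT trained correlated at 0.162 to 0.241 with each other. With strNrip1-/- trained replicate 2 they correlated at -0.105 to -0.0285. The numbers were not taken to pair the samples, and what the replicates 2 share was not tested. A fit with the replicate number as a block called 4, 4 and 6 factors higher (Foxred1 added in trained libraries, adjusted p = 0.018).

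Leaving out the slow-fiber libraries and removing a trend with length and GC content (3, 3 and 6 factors called) were chosen after seeing the data. With the trend removed, the sedentary calls lost Cox15, and the averaged calls lost Foxred1 and gained Sco1. The FPKM of 3 fragments on a transcript of 2 kb was 0.0514 to 0.0752, below every factor's level. With 3 libraries a group, small changes were not resolved.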
